A study of Sus scrofa with 15 samples.

Results

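The 10 genes described here code for factors of the trophectoderm and the hypoblast, the first extraembryonic lineages of the pig embryo. They are TFAP2A, TFAP2C, CDX2, TEAD4, YAP1, GATA2, GATA3, GATA4, GATA6 and ELF3, each found by its symbol among the 43294 features of the deposited table. TFAP2C and GATA6 were selected on their normalised read counts, which stood higher in both treated groups of embryos, and the other 8 were added as related lineage factors. The rises of TFAP2C and GATA6 in the treated embryos are therefore described without a test, and the question put to the data is what the other 8 did. Of the 10 genes, 3 reached a mean of 10 normalised reads over the 12 embryo libraries, which was the minimum for a test (TFAP2A, TFAP2C and GATA6). In the comparison of donor cells with embryos 5 reached it, and 2 genes, TEAD4 and YAP1, were listed at 0 in all 15 libraries.

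Trophectoderm is the outer epithelium of the blastocyst that gives rise to the placenta, and hypoblast is the inner epithelium that gives rise to the yolk sac. TFAP2A and TFAP2C belong to the AP-2 family, whose members bind GC-rich sites and are expressed in trophoblast. TEAD4 binds DNA and is switched on by its coactivator YAP1, which the kinases of the Hippo pathway keep out of the nucleus. CDX2, GATA2, GATA3 and ELF3 act in trophectoderm or other epithelia, whereas GATA6 and GATA4 are the GATA factors of the hypoblast. Much of this programme was worked out in mouse embryos, where these factors act from late cleavage to the blastocyst.

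The libraries were RNA-seq of porcine fetal fibroblasts (PFF) and of embryos made from them by somatic cell nuclear transfer (SCNT), with 3 libraries in each of 5 groups. SCNT4c and SCNT8c were untreated cloned embryos of 4 and 8 cells. SCNT4c-KG were 4-cell embryos injected with KDM4A mRNA, which codes for a histone H3 lysine demethylase, at 1000 ng/µl 5 h after activation. They were also kept from 0 to 48 h in 0.1 µM GSK126, an inhibitor of the histone methyltransferase EZH2, so the parts of the 2 agents cannot be told apart. SCNT4c-TDG were 4-cell embryos cloned from fibroblasts that carried a doxycycline-inducible TDG transgene under puromycin selection, with 500 ng/ml doxycycline from 40 to 72 h. TDG is a glycosylase of active DNA demethylation. Embryos given doxycycline without the transgene were not analysed here, so transgene, selected line and drug cannot be told apart. All the embryos were cloned, each embryo library came from a pool of 30 embryos, and fertilised embryos were not analysed here.

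The reads recovered per library ranged from 12354649 in SCNT4c-KG replicate 1 to 22868038 in PFF replicate 3, and the 3 SCNT4c-KG libraries were the shallowest. The treatments showed in their own genes. KDM4A was at 1448 ± 24.9 normalised reads (SD, n = 3) in SCNT4c-KG against 194 ± 103 in SCNT4c, and TDG at 55575 ± 5177 in SCNT4c-TDG against 1713 ± 802. KDM4A was also higher in SCNT4c-TDG, at 775 ± 194, and TDG in SCNT4c-KG, at 4366 ± 436. EZH2, whose protein GSK126 inhibits, was at 333 ± 16.5 in SCNT4c, 1062 ± 168 in SCNT4c-KG and 1124 ± 122 in SCNT4c-TDG. The labels give conflicting numbers for SCNT4c, whose libraries are called a, b and c, and the descriptions of the SCNT4c-KG samples name columns of untreated embryos, so that their group was taken from their titles. Summed fibroblast markers ran from 3893570 to 4125790 normalised reads in PFF and from 1826 to 5886 in the embryos. Summed oocyte and cleavage-stage markers ran from 225767 to 249325 in SCNT4c, from 86428 to 130439 in SCNT4c-KG, from 62117 to 63049 in SCNT4c-TDG, from 58590 to 158110 in SCNT8c and from 16.6 to 29.8 in PFF, although BMP15 and GDF9, which mark oocytes, were listed at 0 in every library. Summed cumulus and granulosa cell markers lay between 616 and 2303 in the embryos and between 652 and 699 in PFF. The part of these differences in the results below was not tested. In bulk libraries of pooled embryos, fewer cells that use a gene and less of its RNA per cell cannot be told apart.

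TFAP2C was the most abundant per kb of exon among the table entries under the 10 symbols in every embryo group, with YAP1 and TEAD4 listed at 0. It lies on chromosome 17 (57164400-57174923, forward strand, Sscrofa11.1). The 3 SCNT4c libraries held 1118, 544 and 605 normalised reads. The 3 SCNT4c-KG libraries held 15340, 17839 and 11132, and the 3 SCNT4c-TDG libraries 32218, 33428 and 42616. Every treated library lay above every untreated embryo library, since SCNT8c held 1569, 1801 and 1158. In donor cells TFAP2C was at 0 in 2 libraries and at 2.38 in the third, which rests on 2 reads. The means were 19.5-fold higher in SCNT4c-KG and 47.7-fold higher in SCNT4c-TDG than in SCNT4c, with log2 changes of 4.34 ± 0.31 and 5.64 ± 0.31 (SE, on log2(value + 1)).

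GATA6 was not detected in untreated 4-cell embryos and was present in every treated library. The gene lies on chromosome 6 (107282709-107314725, forward strand). No read was counted in any of the 3 SCNT4c libraries, while the SCNT4c-KG libraries held 276, 272 and 294 and the SCNT4c-TDG libraries 437, 304 and 301. A count of 0 allows up to 3 reads per library, or 2.49 normalised reads on average in SCNT4c, so that the means were at least 112-fold higher in SCNT4c-KG and at least 139-fold higher in SCNT4c-TDG (counting error only). SCNT8c held 0, 1.66 and 1.06, at most 2 reads in a library. The donor cells held 52.5, 47.1 and 51.2, which lay below all 6 treated libraries and above all 6 untreated embryo libraries. Per kb of exon, GATA6 stayed far below TFAP2C, with levels of 79.2 against 11867 normalised reads per kb in SCNT4c-TDG and 64.0 against 4857 in SCNT4c-KG.

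**Figure D1:**
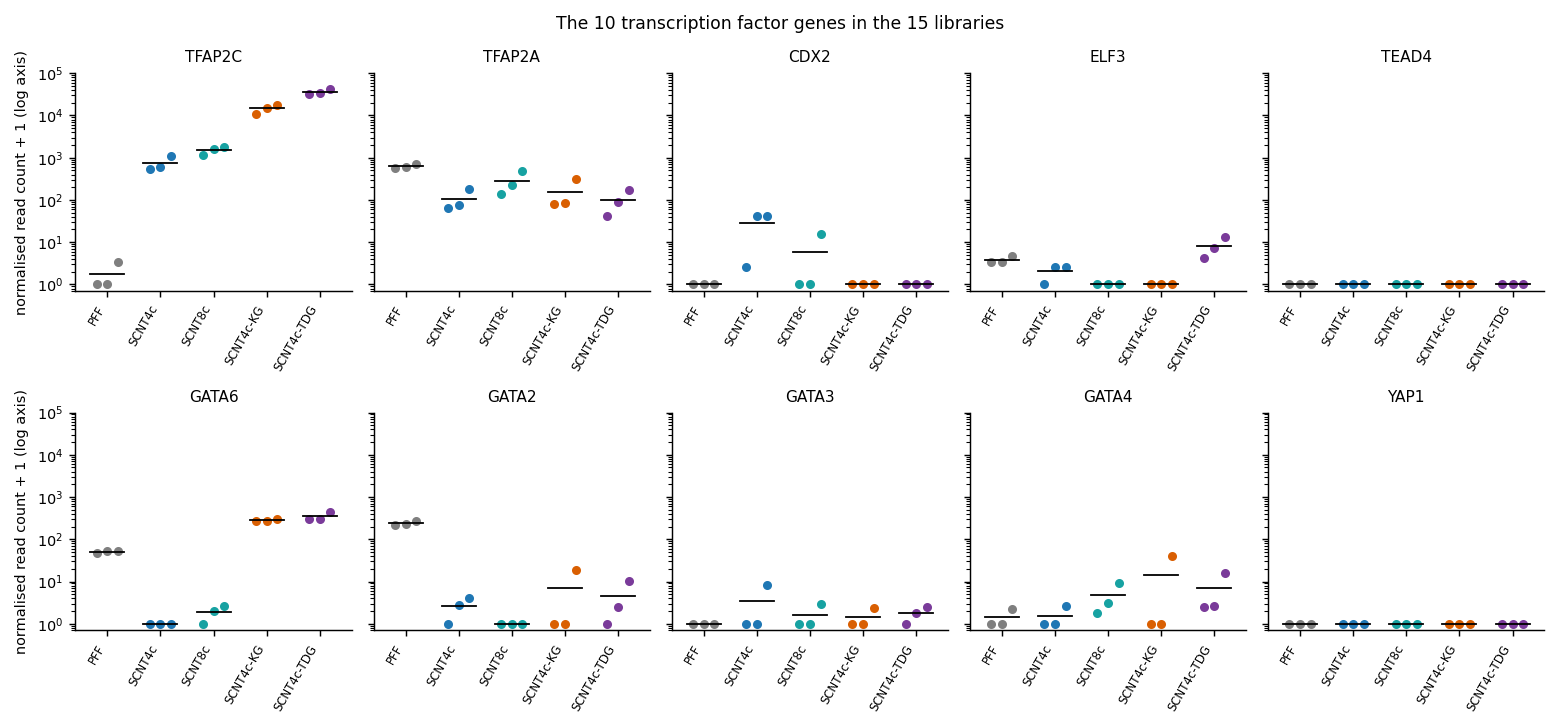
Normalised read count + 1 on a log axis for the 10 genes in the 15 libraries, with 1 point per library (sorted within a group) and a bar at the group mean. TFAP2C and GATA6 stand higher in the 6 treated libraries than in the 6 untreated embryo libraries, and TEAD4 and YAP1 are at 0 throughout.

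The sequence before the start of TFAP2A, the AP-2 paralogue that did not move with TFAP2C, is shown for its motifs. It is the 250 bases before the annotated start (chr7:7244627-7244876, reverse strand, written 5′ to 3′ on the strand of the gene, from the RefSeq genome Sscrofa11.1), and capitals mark a match to the CDX2 motif, read on the other strand.
TFAP2A: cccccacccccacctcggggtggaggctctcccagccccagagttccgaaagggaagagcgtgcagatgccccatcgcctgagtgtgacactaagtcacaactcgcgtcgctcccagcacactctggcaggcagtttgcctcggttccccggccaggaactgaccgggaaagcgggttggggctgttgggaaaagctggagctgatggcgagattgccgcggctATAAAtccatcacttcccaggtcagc

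The motifs searched on both strands were GCCNNNGGC for AP-2, GATAA for GATA factors, GGAATG for TEAD factors and TTTAT for CDX2. The TFAP2A stretch held 1 match to the CDX2 motif, which 31.4% of the 19547 protein-coding genes with a full window also held. No AP-2, GATA or TEAD match stood in it, against 22.0%, 19.1% and 10.3% of genes. The stretch held 14 CpGs, more than 54.3% of genes, with a median of 12 over all genes. The 250 bases before GATA6 held 21 CpGs, more than 72.3% of genes, and no match to the 4 motifs. They are not printed because exons of the neighbouring gene LOC100525229 cover all but 19 of them.

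TFAP2A, the AP-2 paralogue, did not follow TFAP2C. The gene lies on chromosome 7 (7221654-7244626, reverse strand). Its SCNT4c libraries held 181, 76.0 and 62.3 normalised reads, its SCNT4c-KG libraries 305, 85.0 and 81.2, and its SCNT4c-TDG libraries 88.6, 171 and 40.6. All 3 groups overlapped. Against SCNT4c the log2 difference was 0.43 in SCNT4c-KG (95% interval -1.06 to 1.91, adjusted p = 0.65) and -0.16 in SCNT4c-TDG (-1.64 to 1.33, adjusted p = 0.88; limma). The sign of the second turned with the scaling (0.11 with the same total in each library), and the interval of each is wide enough to hold a 2-fold change either way. Its level per kb of exon was 32.1 in SCNT4c, where TFAP2C had 249 and GATA6 had 0. Reads on TFAP2A may be shared with LOC106504315, which overlaps it on the other strand, since the strand setting of the counting is not given.

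Of the 8 related factors, TFAP2A was thus the only one with enough reads in the embryos for a test, and 0 were called in either treated group. A call needed an adjusted p under 0.05 in limma over all tested features and a fold change above 2. No unadjusted p was under 0.05 and edgeR and DESeq2 on the recovered reads also called 0. In SCNT4c-KG against SCNT4c, 17.6% of the 18942 tested features were called higher and 19.6% lower. In SCNT4c-TDG against SCNT4c, 15.7% were called higher and 17.6% lower. The median log2 change of all tested features was -0.30 in SCNT4c-KG and -0.26 in SCNT4c-TDG.

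CDX2, the caudal-type homeobox factor of trophectoderm, went the other way from TFAP2C, on few reads. The gene is on chromosome 11 (5339727-5346081, reverse strand). SCNT4c held 41.0, 40.2 and 1.66 normalised reads, which are 100 reads in all. Not a single read was counted in the 6 treated libraries or in PFF, and SCNT8c held 0, 14.96 and 0. The SCNT4c mean was at least 6.38-fold above the limit of 3 reads per library in SCNT4c-KG and at least 11.7-fold above it in SCNT4c-TDG, but SCNT4c library c, with 2 reads, was itself under that limit. CDX2 had too low a mean for the embryo test. Without the filter on low values it was called lower in both treated groups (log2 change -4.06 ± 1.19, adjusted p = 0.025 in SCNT4c-KG and 0.028 in SCNT4c-TDG).

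ELF3, an ETS factor of epithelia, was near the limit of detection. The gene is on chromosome 10 (24237852-24242266, forward strand). It held 3.34, 12.3 and 6.12 normalised reads in SCNT4c-TDG and 0 in all SCNT4c-KG and SCNT8c libraries. SCNT4c held 1.58, 0 and 1.66 and PFF 2.44, 3.82 and 2.38. The SCNT4c-TDG libraries did not overlap those of SCNT4c-KG or SCNT4c. At this depth ELF3 had no test, and without the filter on low values it was called higher in SCNT4c-TDG than in SCNT4c-KG (adjusted p = 0.013). The limit of 3 reads per library was 4.33 normalised reads on average in SCNT4c-KG, above the lowest SCNT4c-TDG value of 3.34. The SCNT4c-TDG mean was at least 1.67-fold above that limit.

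GATA2, GATA3 and GATA4 stayed low in the embryos while GATA6 stood high in the treated groups. GATA2, a factor of trophoblast and blood, is on chromosome 13 (71981139-71997626, forward strand). It held 215, 271 and 234 normalised reads in PFF but 3.15, 1.75 and 0 in SCNT4c. SCNT4c-KG held 0, 17.8 and 0, SCNT4c-TDG held 9.20, 1.53 and 0, and all SCNT8c libraries were at 0. The SCNT4c-KG mean thus rests on 1 library. The antisense gene LOC102160340, which lies opposite GATA2, was at 377 to 410 in PFF and at most 12.2 in the embryos.

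GATA3, which acts beside CDX2 in mouse trophectoderm, is on chromosome 10 (63367684-63397977, reverse strand). Its highest value was 7.47 normalised reads, in SCNT4c library c, and it was above 0 in 5 of 15 libraries. GATA4, the partner of GATA6 in hypoblast, is on chromosome 14 (14858470-14938156, forward strand). SCNT4c held 0, 0 and 1.66, SCNT4c-KG held 0, 39.3 and 0, SCNT4c-TDG held 1.67, 1.53 and 15.3, and SCNT8c held 8.40, 0.831 and 2.11. Single libraries set both treated means of GATA4, and the groups overlapped. The entries under the symbols GATA2, GATA3 and GATA4 were too low for a test among embryo groups, and with 3 libraries a side an exact permutation test cannot go below p = 0.1.

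TEAD4 and YAP1 need a different reading of the table. The authors assembled transcripts beside the known genes, and 748 of the 4062 known genes at 0 in every library share their locus with an assembled transcript above 0 in every library. YAP1 (chromosome 9, 32811629-32924926, forward strand) is one of them. The only assembled transcript at its locus, MSTRG.87236, held 797, 1363 and 1168 normalised reads in SCNT4c. It held 98.0, 90.1 and 167 in SCNT4c-KG and 289, 246 and 402 in SCNT4c-TDG, so both treated groups lay below SCNT4c without overlap. SCNT8c held 565, 763 and 1481 and PFF 464, 395 and 474. The transcript fell by 3.24 ± 0.42 on the log2 scale in SCNT4c-KG (SE, adjusted p = 4.04e-05) and fell by 1.82 ± 0.42 in SCNT4c-TDG (adjusted p = 0.0040). Both calls held under all 16 alternatives that could be fitted. The table places it only on the merged locus, which also holds the divergent non-coding gene LOC102157672, so that its identity with YAP1 was not tested.

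TEAD4 (chromosome 5, 67130392-67167579, reverse strand) shares its locus with 4 assembled transcripts. MSTRG.52841 was the most abundant of them in the embryos, with 118, 101 and 70.6 normalised reads in SCNT4c, 242, 160 and 158 in SCNT4c-KG and 112, 72.9 and 81.9 in SCNT4c-TDG. It was not called against SCNT4c in either treated group (log2 difference 0.94 ± 0.61, adjusted p = 0.24, and -0.11 ± 0.61, adjusted p = 0.90). MSTRG.52839 was mainly a transcript of the donor cells, with 346, 378 and 366 in PFF against 5.52, 9.61 and 23.2 in SCNT4c (log2 difference 4.94 ± 0.50, adjusted p = 0.00015). MSTRG.52842 and MSTRG.52844 were at most 87.5 in any library and were not called in the treated groups. One more assembled transcript, MSTRG.97674 at the GATA3 locus, fell from 49.7, 49.8 and 29.9 in SCNT4c to 0, 0 and 15.7 in SCNT4c-KG (log2 change -4.07 ± 1.30, adjusted p = 0.023). That call was lost in 6 of 15 alternatives, among them leaving out SCNT4c-KG replicate 1 (adjusted p = 0.081). In SCNT4c-TDG the same transcript was at 0, 21.5 and 20.7 and was not called (adjusted p = 0.16).

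**Figure D2:**
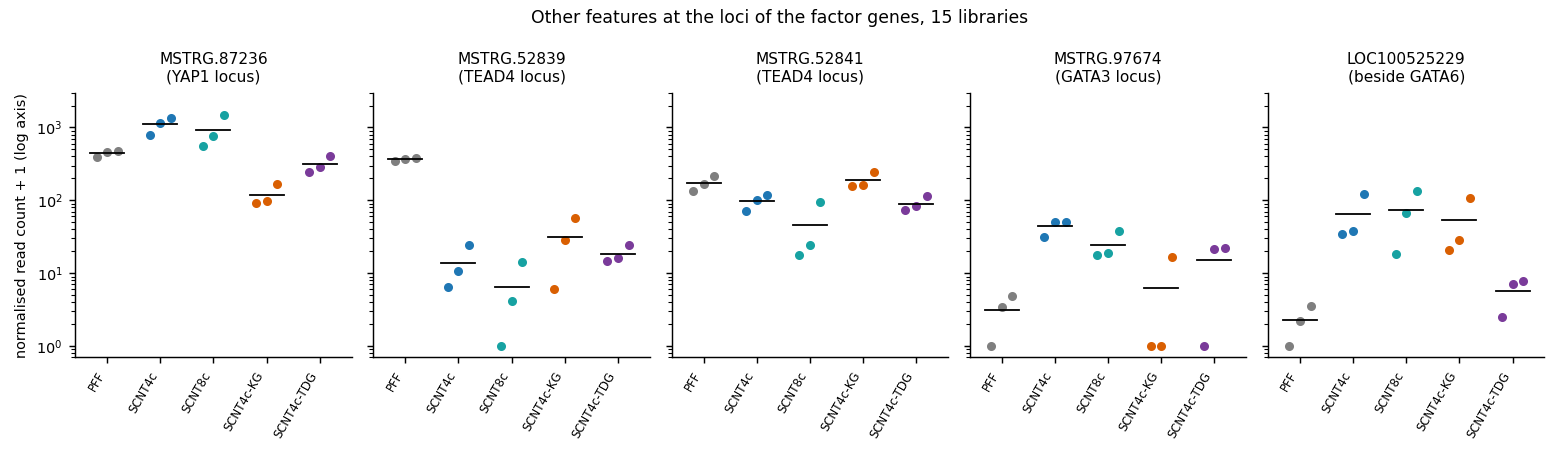
Normalised read count + 1 on a log axis, in 15 libraries, for 4 assembled transcripts at the loci of YAP1, TEAD4 and GATA3 and for LOC100525229 beside GATA6, with 1 point per library and a bar at the group mean. MSTRG.87236 at the YAP1 locus is lowest in SCNT4c-KG (90.1 to 167), and LOC100525229 is low in SCNT4c-TDG (1.53 to 6.69) but not in SCNT4c-KG.

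GATA6 has a neighbour on the other strand whose start overlaps its own, the gene LOC100525229, which did not move with it. LOC100525229 held 121, 36.7 and 34.0 normalised reads in SCNT4c and 108, 27.9 and 19.9 in SCNT4c-KG. In SCNT4c-TDG it held 6.69, 1.53 and 6.12, below all SCNT4c libraries. The log2 change was -0.43 ± 0.93 in SCNT4c-KG (adjusted p = 0.74) and -3.39 ± 0.93 in SCNT4c-TDG (adjusted p = 0.011). The second call was lost without SCNT4c library a (adjusted p = 0.057) or SCNT4c-TDG replicate 2 (adjusted p = 0.056).

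Whether the treatments differed was tested in SCNT4c-TDG against SCNT4c-KG, where 7.07% of features were called higher and 9.13% lower. TFAP2C and GATA6 were chosen for standing higher in both treated groups than in SCNT4c, which does not set which treated group is higher. TFAP2C was 2.44-fold higher in SCNT4c-TDG, a log2 difference of 1.30 ± 0.31 (95% interval 0.64 to 1.97, adjusted p = 0.0099), and all 3 SCNT4c-TDG libraries lay above all 3 SCNT4c-KG libraries. The call was lost without SCNT4c-TDG replicate 3 (log2 difference 1.18, adjusted p = 0.057). GATA6 differed by 0.29 ± 0.71 (95% interval -1.23 to 1.7998, adjusted p = 0.83), although its SCNT4c-TDG libraries were also all above those of SCNT4c-KG. TFAP2A differed by -0.59 ± 0.70 (95% interval -2.07 to 0.90, adjusted p = 0.62). The assembled transcript at the YAP1 locus was higher in SCNT4c-TDG by 1.42 ± 0.42 (adjusted p = 0.032), and that call was lost in 6 of 17 alternatives, with adjusted p between 0.060 and 0.13 where any library but SCNT4c-KG replicate 3 was left out. LOC100525229 was lower in SCNT4c-TDG by a log2 difference of -2.96 ± 0.93 (adjusted p = 0.041), a call lost in 9 of 17 alternatives, as without SCNT4c-KG replicate 1 (adjusted p = 0.17).

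Untreated embryos of 8 and 4 cells were compared to see what these genes did with stage alone. The SCNT4c libraries served to choose TFAP2C and GATA6, so that both are described with no test. TFAP2C had means of 1510 ± 326 in SCNT8c and 756 ± 315 in SCNT4c (SD, n = 3), and every SCNT8c library lay above every SCNT4c library. The log2 difference was 1.05 ± 0.31. For GATA6 the difference was 0.82 ± 0.71, on at most 2 reads in a library. TFAP2A held 228, 487 and 137 normalised reads in SCNT8c, a log2 difference of 1.37 ± 0.70 (adjusted p = 0.20, unadjusted p = 0.067), and was not called by limma, edgeR or DESeq2. Over all features, 2.62% were called higher and 3.16% lower in SCNT8c. Single libraries moved that background, since 1096 features were called with all libraries, 6133 without SCNT8c replicate 3, and 31 to 234 without any one of the other 5.

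Against the 8-cell embryos, the treated 4-cell embryos again showed TFAP2C and GATA6 higher. Because the genes were chosen for high values in the treated libraries, the values are a description. TFAP2C was 9.78-fold higher in SCNT4c-KG and 23.9-fold higher in SCNT4c-TDG than in SCNT8c, and GATA6 was higher by 7.32 ± 0.71 and 7.60 ± 0.71 on the log2(value + 1) scale. TFAP2A was called in neither comparison. Over all features, calls were 16.4% higher and 11.8% lower in SCNT4c-KG, and 13.7% higher and 11.0% lower in SCNT4c-TDG. TFAP2A was lower in SCNT4c-TDG than in SCNT8c by a log2 difference of -1.53 ± 0.70 (adjusted p = 0.12, but called without SCNT8c replicate 3, at -1.95 and adjusted p = 0.0496), and in SCNT4c-KG by -0.94 ± 0.70 (adjusted p = 0.34). The YAP1-locus transcript was called lower than in SCNT8c in both, by -2.91 ± 0.42 (adjusted p = 1.38e-04) and -1.49 ± 0.42 (adjusted p = 0.017), the latter not without SCNT4c-TDG replicate 1 (adjusted p = 0.060) or 2 (adjusted p = 0.077). MSTRG.52841 at the TEAD4 locus was higher in SCNT4c-KG than in SCNT8c by 2.41 ± 0.61 (adjusted p = 0.0086, but 0.054 in a fit of the 2 groups alone).

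**Figure D3:**
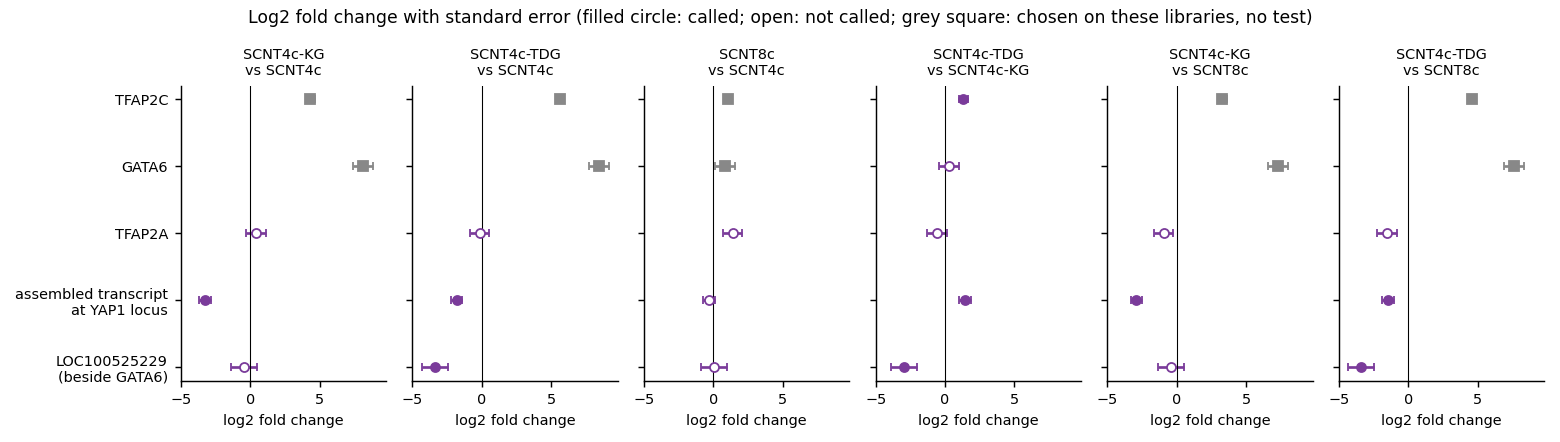
Log2 fold change with its standard error (n = 3 libraries per group) for the 3 tested genes, the assembled transcript at the YAP1 locus and LOC100525229 in the 6 comparisons of embryos. Filled circles are calls, open circles are not, and grey squares are TFAP2C and GATA6 in the 5 comparisons with an untreated group, with no test because they were chosen for being higher in treated libraries than in SCNT4c. TFAP2A has open circles in all 6, and the YAP1-locus transcript is lower in both treated groups than in both untreated ones.

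TFAP2A, GATA2 and GATA6 stood higher in donor cells than in 4-cell embryos, and TFAP2C and CDX2 lower. In PFF against SCNT4c, 38.5% of the 19287 tested features were called higher in PFF and 39.7% lower. TFAP2A, with 602, 694 and 567 normalised reads in PFF, was 5.83-fold higher there (log2 difference 2.69 ± 0.42, adjusted p = 0.0012). GATA2 had a log2 difference of 6.73 ± 0.56 and CDX2 of -4.06 ± 1.12. Both are given with no test, because each passed the filter on low values only through the group in which it was high. Without SCNT4c library a or b the mean of CDX2 fell under the minimum. GATA6, at least 20.2-fold higher in PFF, and TFAP2C, lower by a log2 difference of -8.90 ± 0.59, are given with no test because the SCNT4c libraries served to choose them. TFAP2C, CDX2, GATA2 and GATA6 passed the filter on low values only through the group in which they were high, so that the number of calls says nothing of the 10 genes as a set. In the treated embryos the means of TFAP2A and GATA2 were below those of PFF, whereas GATA6 had group means 5.57-fold (SCNT4c-KG) and 6.90-fold (SCNT4c-TDG) those of PFF. Treated embryos and PFF were not tested against each other.

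The genes related to these factors by family or pathway were followed as 6 lists. The AP-2 and ELF relatives held 5 tested genes of 10. In SCNT4c-KG, ELF2, a widely expressed ETS factor, rose by 3.87 ± 0.81 (44.8 to 441 normalised reads, adjusted p = 0.0018) and ETS2 fell by 2.17 ± 0.68 (adjusted p = 0.022, but 0.079 without SCNT4c library a, 0.058 without library b and 0.072 without SCNT4c-KG replicate 1). In SCNT4c-TDG 0 of the 5 were called. Of the further AP-2 genes, TFAP2B and TFAP2E were tested and neither was called. TFAP2B had means of 46.4 in SCNT4c, 35.6 in SCNT4c-KG and 12.1 in SCNT4c-TDG. TFAP2E had 4.66 in SCNT4c (0 to 11.6), 29.7 in SCNT4c-KG (8.55 to 42.5) and 31.6 in SCNT4c-TDG (22.2 to 43.5), log2 differences of 2.86 ± 1.21 (adjusted p = 0.074) and 3.17 ± 1.21 (adjusted p = 0.055). Of the GATA relatives and cofactors 1 of 7 was tested, LMO2, which bridges GATA factors to their partners, and it was lower in both treated groups (89.9 in SCNT4c, 12.2 in SCNT4c-KG and 2.44 in SCNT4c-TDG; adjusted p = 0.015 and 0.0045, the first 0.071 without SCNT4c-KG replicate 3). The FOG cofactors ZFPM1 and ZFPM2 had means of at most 17.1 in the embryo groups, but an assembled transcript at the ZFPM2 locus had means of 36.5 to 64.9.

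Of the Hippo pathway and TEAD cofactors, 18 of 24 were tested. In SCNT4c-KG 1 rose and 3 fell, against 17.6% and 19.6% of all features. CCN2, a target gene of YAP1, rose by 1.45 ± 0.46 (260 to 689, adjusted p = 0.023, but 0.10 without SCNT4c library b, 0.059 without SCNT4c-KG replicate 2 and 0.072 without replicate 3), whereas CCN1, another such target, fell by 4.42 ± 1.67 (99.5 to 13.1, adjusted p = 0.048, a call lost in 9 alternatives). VGLL3, a TEAD cofactor, fell by 2.31 ± 0.50 (1004 to 209, adjusted p = 0.0024). In SCNT4c-TDG 3 rose and 1 fell, against 15.7% and 17.6% of all features. LATS1, a kinase that phosphorylates YAP1, rose by 2.58 ± 0.69 (56.8 to 278, adjusted p = 0.0095), and MOB1B, an activator of LATS kinases, by 2.16 ± 0.59 (adjusted p = 0.011, but 0.061 without SCNT4c library b and 0.054 without SCNT4c-TDG replicate 1). VGLL1 fell by 3.49 ± 1.16 (44.8 to 6.13, adjusted p = 0.030, a call lost in 7 alternatives). In SCNT4c-TDG against SCNT4c-KG, 4 of the 18 were higher and 0 lower, against 7.07% and 9.13% of all features. They were led by LATS1 (2.55 ± 0.69), VGLL3 (2.00 ± 0.50) and STK3 (1.79 ± 0.42), whose calls were lost in 4, 2 and 1 of 18 alternatives. Without SCNT4c-TDG replicate 3 their adjusted p was 0.069, 0.064 and 0.053, and without SCNT4c-KG replicate 1 that of LATS1 was 0.088 and that of VGLL3 0.055. LATS1 was also lost without SCNT4c-TDG replicate 1 (0.062) or 2 (0.073). The list median was -0.38 in SCNT4c-KG and 0.12 in SCNT4c-TDG, beside -0.30 and -0.26 for all features.

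The trophectoderm genes, beyond the 10 factors, had calls in both directions. Of 21 genes 12 were tested, and 2 rose and 1 fell in SCNT4c-KG, while 1 rose and 1 fell in SCNT4c-TDG. These shares were at or below those of all features called (17.6% higher and 19.6% lower in SCNT4c-KG, 15.7% and 17.6% in SCNT4c-TDG). PPARG, a nuclear receptor of trophoblast, rose by 3.02 ± 0.91 in SCNT4c-KG (6.83 to 53.4, adjusted p = 0.017, a call lost in 5 alternatives). ID2 fell by 2.21 ± 0.57 (190 to 43.3, adjusted p = 0.0071). In SCNT4c-TDG, ATP1B1, a subunit of the sodium pump that fills the blastocoel, rose by 2.04 ± 0.54 (41.7 to 185, adjusted p = 0.0089, but 0.058 without SCNT4c-TDG replicate 3), and the tight junction gene CLDN4 fell by 3.09 ± 0.88 (280 to 38.2, adjusted p = 0.014, but 0.073 without SCNT4c library a and 0.055 and 0.066 without SCNT4c-TDG replicates 2 and 3). The list medians were 0.37 and 0.34.

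Against SCNT4c, none of the tested hypoblast genes was called in the direction of GATA6. Of 19 genes 10 were tested, and 6 fell and 0 rose in SCNT4c-KG, while 4 fell and 0 rose in SCNT4c-TDG, against 19.6% and 17.6% of all features called lower, with list medians of -1.81 and -1.21. In SCNT4c-KG the largest were COL4A1 (-4.41 ± 0.85, adjusted p = 0.0010), the basement membrane gene NID2 (-2.66 ± 0.47, 1078 to 172, adjusted p = 0.00052) and the laminin gene LAMB1 (-2.42 ± 0.29, 3077 to 583, adjusted p = 1.7e-05). COL4A1 had a mean of 22.5 in SCNT4c and 0 in SCNT4c-KG, and its direction turned when the assembled transcripts of its locus were added (log2 change 1.09, adjusted p = 0.20). In SCNT4c-TDG they included SPARC (-4.21 ± 0.47, 2412 to 131, adjusted p = 1.1e-05) and LAMB1 (-2.01 ± 0.29, adjusted p = 9.6e-05). COL4A1, LAMB1, LAMC1, NID2 and SPARC are also genes of the donor cells, each higher in PFF than in SCNT4c, and 5 of 10 tested fibroblast markers fell in SCNT4c-KG and 4 in SCNT4c-TDG, against 3 and 1 that rose. Of the fibroblast markers, PDGFRB was at 0 in all SCNT4c and SCNT4c-KG libraries and LUM in all SCNT4c-KG and SCNT8c libraries. The hypoblast factors SOX17 and FOXA2 had means of at most 5.66 in the embryo groups, and PDGFRA was listed at 0 beside an assembled transcript at its locus.

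Of the epiblast genes, which mark the third lineage, NANOG, SOX2 and DPPA5 rose in both treated groups. Of 11 entries for 10 genes 5 were tested, and 3 rose and 0 fell in each treated group, against 17.6% (SCNT4c-KG) and 15.7% (SCNT4c-TDG) of all features called higher, with list medians of 3.75 and 2.27. They were NANOG (11.7 in SCNT4c, 204 in SCNT4c-KG and 326 in SCNT4c-TDG), SOX2 (14.0, 327 and 52.8) and DPPA5 (2832, 38403 and 13216). NANOG codes for a homeobox factor and SOX2 for an HMG-box factor of pluripotent cells. SOX2 was lower in SCNT4c-TDG than in SCNT4c-KG by -2.62 ± 0.81 (adjusted p = 0.038, a call lost in 9 of 18 alternatives) and DPPA5 by -1.49 ± 0.36 (adjusted p = 0.012), unlike TFAP2C, which was higher there. The DPPA5 call was lost in 3 of 18 alternatives, among them without SCNT4c-KG replicate 1 (adjusted p = 0.068) or SCNT4c-TDG replicate 2 (adjusted p = 0.067). Over the alternatives the DPPA5 difference shrank to as little as -0.76 and its adjusted p rose to as much as 0.16. The log2 change of SOX2 in SCNT4c-TDG was 2.43 ± 0.81 (adjusted p = 0.031, a call lost in 5 alternatives).

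**Figure D4:**
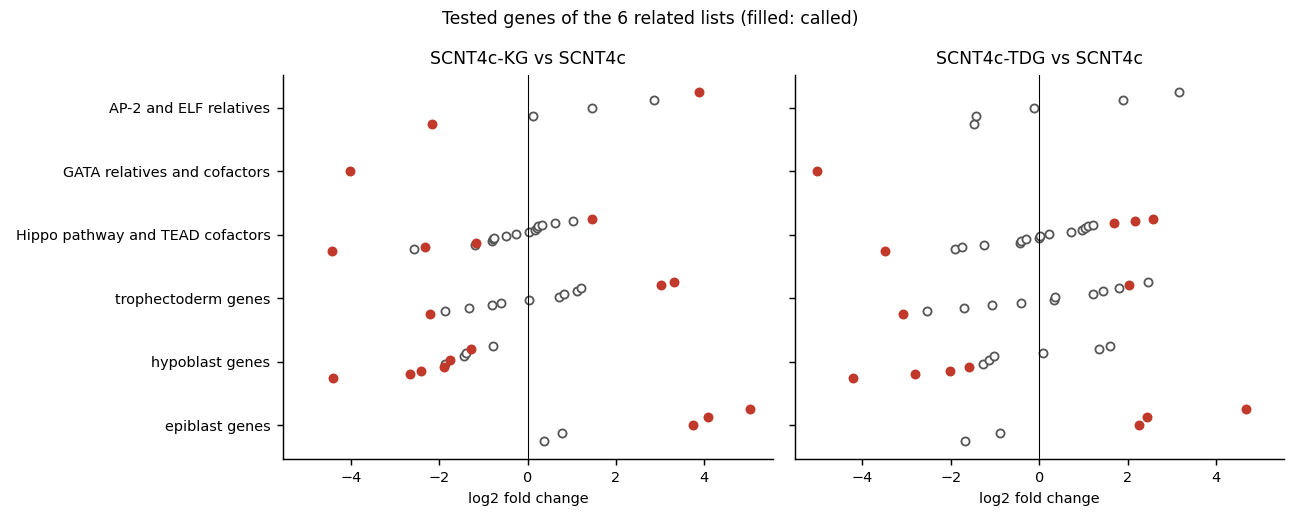
Log2 fold change of each tested gene of the 6 related lists in SCNT4c-KG and SCNT4c-TDG against SCNT4c, with 1 point per gene, filled where called. The called hypoblast genes all lie below 0 (6 and 4 genes) and the called epiblast genes all above (3 and 3), while the Hippo and trophectoderm lists have calls on both sides.

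In SCNT8c against SCNT4c, where 2.62% of all features were called higher and 3.16% lower, the calls among the list genes were LAMB1 (-1.43 ± 0.29, adjusted p = 0.020) and DPPA5 (-1.56 ± 0.36, adjusted p = 0.030), both lower, and 0 in the other 4 lists. These calls were lost in 6 and 5 of 17 alternatives. Against SCNT8c, SCNT4c-KG had 1 AP-2 and ELF relative, 2 trophectoderm genes and 4 epiblast genes higher and 1 Hippo and 1 hypoblast gene lower, against 16.4% and 11.8% of all features. That hypoblast gene was COL4A1, which turned to 2.12 (adjusted p = 0.025) with locus sums. SCNT4c-TDG had 1 Hippo, 2 trophectoderm, 1 hypoblast and 3 epiblast genes higher and 1 GATA cofactor, 1 trophectoderm and 2 hypoblast genes lower than SCNT8c, against 13.7% and 11.0% of all features. In SCNT4c-TDG against SCNT4c-KG, 1 trophectoderm gene was higher (ID2, 1.802 ± 0.57, a call lost in 6 of 18 alternatives), and 2 hypoblast genes were higher (NID2, lost in 7 of 18, and COL4A1, which turned to -1.95 with locus sums) and 1 lower (SPARC, -2.46 ± 0.47). In PFF against SCNT4c, where 38.5% of all features were called higher and 39.7% lower, the Hippo list had 16 of 20 tested genes higher and 1 lower, the trophectoderm list 8 of 12 higher and 2 lower, and the hypoblast list 7 of 13 higher and 4 lower. The AP-2 and ELF list had 3 of 4 higher and 1 lower, the GATA list 2 of 3 higher and 1 lower, and the epiblast list 0 of 4 higher and 3 lower.

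The genes whose log2 values over the 15 libraries ran most like those of TFAP2C, of 10852 named genes, were NUP35 (Pearson r = 0.987), PSMB2 (r = 0.987) and GTF2A2 (r = 0.986), which code for a nuclear pore protein, a proteasome subunit and a subunit of the general transcription factor TFIIA. For GATA6 they were RCHY1, a ubiquitin ligase (r = 0.988), RARS, the arginyl-tRNA synthetase (r = 0.986), and RPP30, a subunit of ribonuclease P (r = 0.985). The points share 5 groups and their libraries, so that these values describe the order of the groups. Like GATA6, RPP30 had means of 393 in PFF, 15.5 in SCNT4c, 2120 in SCNT4c-KG and 1583 in SCNT4c-TDG.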

How the data were processed

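RNA-seq of 15 libraries in 5 groups was analysed. According to the labels and methods, reads were trimmed (Trimmomatic 0.39) and mapped by the authors with STAR 2.5.3a to the pig genome Sscrofa11.1, further transcripts were built by StringTie 2.1.2, and HTSeq gave read numbers per feature. The deposited values are a normalised signal, that is counts divided by 1 factor per library. All values (100% in each library, within a tolerance of 0.1 read) were whole multiples of 1 read, so that reads were recovered. Of 43535 entries 241 repeats were removed.

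Testing used limma 3.58.1 (R 4.3.3, with an intensity trend) on log2(value + 1), a scale that understates the change of low features, and was limited to features whose mean in the libraries fitted was 10 or more. The 12 embryo libraries were fitted together, and PFF with SCNT4c. Adjusted p-values are Benjamini-Hochberg over all tested features and from limma unless another tool is named. Alternatives changed the pseudocount, filter, scaling, fit, locus definition or tool (edgeR 4.0.16 and DESeq2 1.42.0 on the recovered reads), or left out each library. The labels do not say that replicates came from separate batches of embryos, so p-values measure the spread between libraries. The test was tried on simulated reads.

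The genes and lists were chosen with earlier results of these data known. The text names the 10 genes, KDM4A, TDG and EZH2, features at the 10 loci, at most the 3 called genes of a list with the largest change in a comparison, and the 3 genes nearest to TFAP2C and to GATA6. TFAP2B, TFAP2E, ZFPM1, ZFPM2, SOX17, FOXA2, PDGFRA, LAMC1, BMP15, GDF9, PDGFRB and LUM were named after their values were seen. Counts of 0 are read as allowing 3 reads, for counting error only. Intervals are 95%. Some single genes of the lists and some upstream sequence are not reported here.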

Additional observations from a re-analysis of the deposited data

Results flagged for a closer look

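Some features had log2 changes against SCNT4c that differed between the treatments, by the limma test of SCNT4c-TDG against SCNT4c-KG. The differences (SCNT4c-TDG minus SCNT4c-KG) were 1.30 for TFAP2C, 1.42 for MSTRG.87236 at the YAP1 locus and -2.96 for LOC100525229 beside GATA6. Among the Hippo genes they were 1.79 for STK3, 2.55 for LATS1 and 2.00 for VGLL3. In the trophectoderm and hypoblast lists they were 1.802 for ID2, 4.51 for COL4A1, 1.51 for NID2 and -2.46 for SPARC, and among the epiblast genes -2.62 for SOX2 and -1.49 for DPPA5. The groups hold 3 libraries each, so that no test for single outlying libraries was applied.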

How the results depend on the processing

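Of the 119 counts of called factor genes under alternatives, 100 stayed within 1.5 times the reported one, but much of this was set in advance. For the treated groups against SCNT4c, only TFAP2A of the other 8 passed the filter. The 2 genes counted in each treated group against SCNT8c were TFAP2C and GATA6, chosen for high values in treated libraries. The tally is therefore no measure of how stable the results are. In SCNT4c-KG against SCNT4c the count of the other 8 rose from 0 to 1 without the filter on low values and to 1 in a fit of the 2 groups alone (CDX2 in both), and to 2 when assembled transcripts were added to their locus (YAP1 and GATA3). In SCNT4c-TDG against SCNT4c the same 3 settings gave 1, 1 and 1. In SCNT8c against SCNT4c, a pseudocount of 10, a minimum mean of 50, quantile normalization, edgeR and DESeq2 each gave 1 in place of 0 (TFAP2C, described with no test above), and leaving out each library gave 0 to 1. In SCNT4c-TDG against SCNT4c-KG the count went from 1 to 2 without the filter and to 2 with locus sums, and leaving out each library gave 0 to 1. In SCNT4c-KG against SCNT8c the 2 genes past the threshold were TFAP2C and GATA6, described with no test, and locus sums gave 4. In PFF against SCNT4c these genes were among the 5, locus sums gave 8, and a minimum mean of 50 gave 3 because fewer genes were tested.

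The sign of TFAP2A was not stable. Its log2 change in SCNT4c-KG ran from -0.19 (without SCNT4c-KG replicate 1) to 0.89 with each library left out. In SCNT4c-TDG it was 0.12 with quantile normalization, 0.11 with the same total in each library, 0.24 with edgeR and 0.24 with DESeq2, and ran from -0.66 to 0.37 (without SCNT4c-TDG replicate 3) with each library left out. In SCNT4c-TDG against SCNT4c-KG it ran from -1.08 to 0.036 (without SCNT4c-KG replicate 1). COL4A1 turned sign with locus sums, at 1.09 in SCNT4c-KG against SCNT4c, -1.95 in SCNT4c-TDG against SCNT4c-KG and 2.12 in SCNT4c-KG against SCNT8c. The fitted change of GATA6 against SCNT4c, all at 0, moved with the pseudocount from 4.86 to 11.5 in SCNT4c-KG and from 5.14 to 11.7 in SCNT4c-TDG. Of the 104 results on other named features, 62 were called under every alternative. For these changes no cause was tested beyond the settings themselves.

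Counts over all features moved most in SCNT8c against SCNT4c, from 1096 to 0 in a fit of the 2 groups alone, 601 without the filter, 1662 with a pseudocount of 10, 2733 with DESeq2 and 31 to 6133 with each library left out. In SCNT4c-TDG against SCNT4c-KG the count went from 3070 to 4989 in the fit of the 2 groups alone and 1794 to 2521 with each library left out, and in SCNT4c-KG against SCNT8c from 5335 to 3379 in the fit of the 2 groups alone. In PFF against SCNT4c a minimum mean of 50 gave 10020 in place of 15083. Scaling to the same total moved the median change of all features in SCNT4c-TDG from -0.26 to 0.02 against SCNT4c and from -0.02 to 0.34 against SCNT4c-KG.

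With the replicate block in SCNT4c-TDG against SCNT4c-KG, 1 factor gene (TFAP2C) and 4805 features were called, but same-numbered libraries correlated at only 0.0030, 0.0078 and 0.033, so that the numbers do not pair the libraries. The conflicting numbers of SCNT4c allowed no block with that group. The low reads of CDX2, ELF3, GATA2, GATA3 and GATA4 in the embryos limit what can be seen of them.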
